A study of Mus musculus with 12 samples.

Results

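The genes Aqp4, Kcnj10, Slc1a2, Slc1a3, Glul, Slc4a4, Aldh1l1, Gja1, Gjb6 and S100b, which equip astrocytes for transport and metabolism, were followed in the striatum of Q92 and wild-type mice. These 10 of the 18193 genes on the array had 33 probe sets paired with them alone, and the brightest of these on average stood for its gene. The Q92 mice carried HdhQ92/Q92, a homozygous knock-in in which 92 CAG repeats from exon 1 of the human HD gene sit in the endogenous mouse gene, so every cell type carried the allele. All mice were C57BL/6. The 4 groups of 3 mice were Q92 at 18 months (567 to 596 days, 2 females and 1 male), wild type at 18 months (596 to 604 days, 2 females and 1 male), Q92 at 3 months (100 to 103 days, 2 females and 1 male) and wild type at 3 months (100 to 103 days, 1 female and 2 males). Each mouse gave 1 Affymetrix expression array, read as log2 signal per probe set. Values are given in the order Q92_18m_11, 25 and 66, wt_18m_9, 12 and 17, Q92_3m_439, Q92_3m_440 and Q92_3m_466, and wt_3m_436, wt_3m_438 and wt_3m_467, where the last part of a name is the mouse's number.

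Astrocytes take up the glutamate and potassium that active neurons release, turn glutamate into glutamine, and pass ions and metabolites to each other through gap junctions. Their end-feet on blood vessels carry the water channel, and their bicarbonate transport buffers pH around synapses. The striatum consists mostly of GABAergic projection neurons, the cells most affected in Huntington's disease, and these neurons depend on astrocytic uptake of the glutamate released by cortical inputs. All 13 measured projection neuron genes, all 10 members and all 28 other measured astrocyte genes lay above the 40th percentile of mean signal. So did all 9 cortical neuron, 13 oligodendrocyte, 12 microglial and 12 vascular genes, so these levels show that the markers of striatal neurons and astrocytes were present and do not tell the striatum from other brain tissue.

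At 18 months, 8 of the 10 genes were lower in Q92 than in wild-type striatum and the median log2 difference was -0.23. The median over all 18193 genes was -0.0014, and 9163 of these were lower. None of the 10 passed the test (limma, Benjamini-Hochberg adjusted p under 0.05 over 45037 probe sets), which 0.0533% of all probe sets passed in this comparison. Of the members, 3 (Slc4a4, Aldh1l1 and Glul) were lower at an unadjusted p under 0.05, against 4.95% of all genes. Slc4a4 fell with age in Q92 mice, the single member that passed in any of the 5 comparisons of the design. RNA of whole tissue was measured, so fewer astrocytes and less RNA per astrocyte cannot be told apart.

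**Figure D1:**
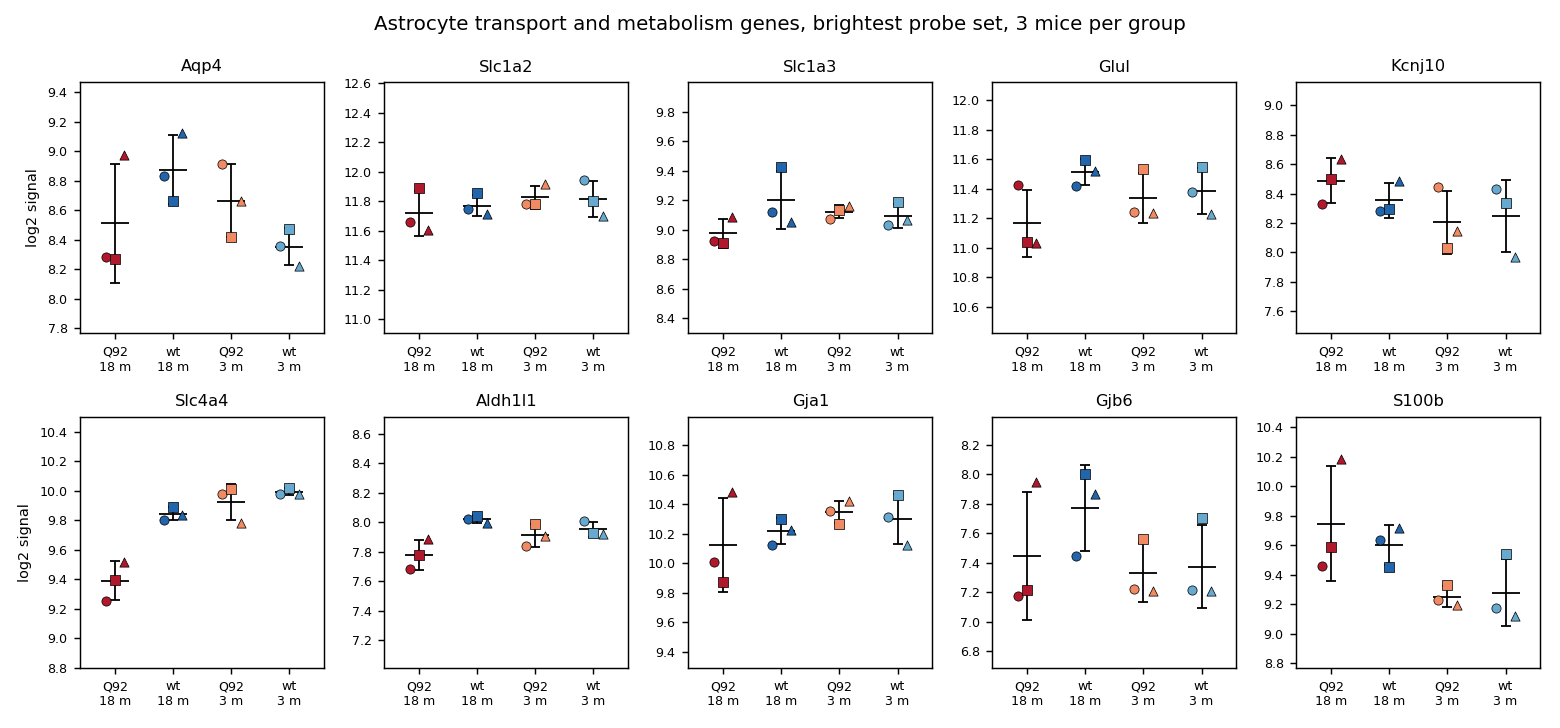
Log2 signal of the brightest probe set of each gene (vertical axis) in the 4 groups, with a point for each mouse, the mean as a long bar and the SD as whiskers (n = 3). The shape of a point gives the mouse in the order listed in the text. Slc4a4 lay between 9.25 and 9.52 in Q92 mice at 18 months, below the other 9 mice.

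The electrogenic sodium bicarbonate cotransporter Slc4a4, which moves bicarbonate and sodium across the astrocyte membrane, had the lowest values in aged Q92 mice. Its log2 signal was 9.25, 9.40 and 9.52 in Q92 mice at 18 months, against 9.80, 9.89 and 9.83 in wild-type mice of that age. It was 9.98, 10.01 and 9.78 in Q92 mice at 3 months, against 9.98, 10.02 and 9.98 in wild-type mice. No value of the aged Q92 mice overlapped with another group, and both 3-month groups overlapped with each other. Within Q92, Slc4a4 fell with age by 0.53 on the log2 scale (SE 0.09, 95% interval -0.74 to -0.33, limma adjusted p 0.0476), or 1.45-fold, where 0.206% of all probe sets passed in either direction. This call was lost without any single 1 of the 12 mice (adjusted p 0.0526 to 0.227), while the difference stayed between -0.60 and -0.47. Within wild type, the difference between 18 and 3 months was -0.15 (adjusted p 0.595), with groups that did not overlap. The difference between Q92 and wild type was -0.45 at 18 months (SE 0.09, adjusted p 0.144) and -0.07 at 3 months (adjusted p 1.00). Its change with age was -0.38 (unadjusted p 0.0138, adjusted p 0.947).

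The 5 probe sets of Slc4a4 did not move as 1. The second brightest, 1452071_at, read 8.12, 7.97 and 8.04 in Q92 mice at 18 months, against 8.19, 8.68 and 8.26 in wild-type mice. At 3 months it read 8.90, 8.90 and 8.64 in Q92 mice, against 8.77, 9.24 and 8.58 in wild-type mice. It was thus lower at 18 than at 3 months in Q92 (-0.77, adjusted p 0.106) and in wild type (-0.49, adjusted p 0.361). Over both genotypes, a comparison added after the data had been seen in which 0.444% of probe sets passed, it fell by 0.63 (adjusted p 0.0442). The brightest probe set was at -0.34 there (adjusted p 0.0501). Over the 12 arrays the brightest correlated with 1452071_at at r = 0.82, but with 1426432_a_at at 0.17 and with 1421225_a_at at -0.12. These last 2 were at -0.09 and -0.11 between Q92 and wild type at 18 months (adjusted p 0.969 and 0.977), and with the mean of all probe sets in place of the brightest the difference was -0.17. That mean includes 1450169_at, which had a low signal (percentile 11.9 of mean signal) and was at +0.11. The sources used here do not say which transcripts each probe set reads. Slc4a4 lies on chromosome 5, as does Htt (older symbol Hdh), with 235 measured genes between them, and no other member lies on that chromosome.

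**Figure D2:**
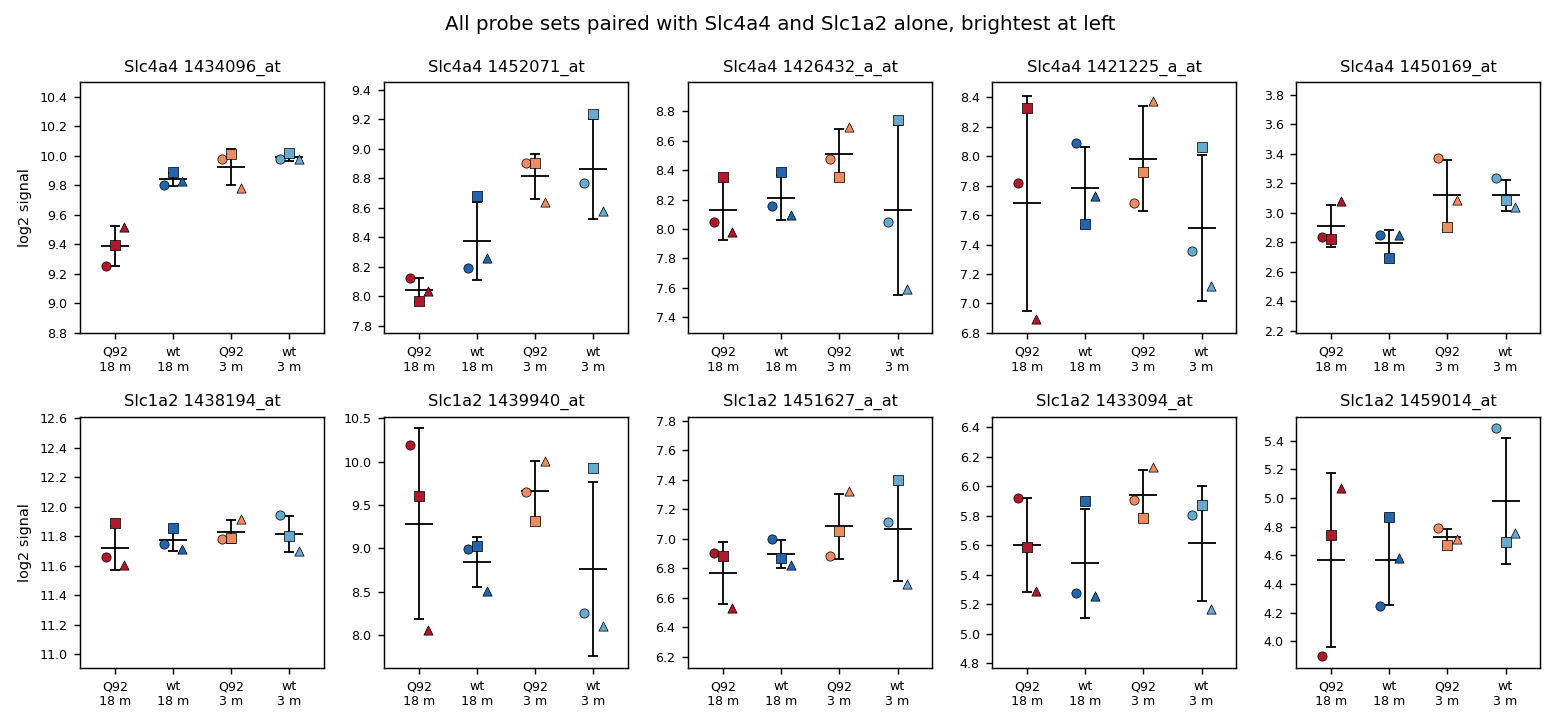
Log2 signal of the 5 probe sets of Slc4a4 (top) and the 5 of Slc1a2 (bottom), brightest at left, in each mouse of the 4 groups, with mean and SD (n = 3). For Slc4a4 the 2 left panels are lowest in Q92 mice at 18 months, and in the other 3 the Q92 and wild-type mice overlap at both ages.

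Slc4a4 has 2 RefSeq starts, and the 250 bases before each are printed because it was the member that passed, with those of Aldh1l1 and Glul, which had the next smallest p-values between Q92 and wild type at 18 months. Coordinates are of GRCm38.p6, and the sequences run 5′ to 3′ on the coding strand. Capitals mark TTGGC or its reverse complement GCCAA, the half-site of nuclear factor I proteins.
Slc4a4 start 1 (chr5:88887010-88887259, + strand): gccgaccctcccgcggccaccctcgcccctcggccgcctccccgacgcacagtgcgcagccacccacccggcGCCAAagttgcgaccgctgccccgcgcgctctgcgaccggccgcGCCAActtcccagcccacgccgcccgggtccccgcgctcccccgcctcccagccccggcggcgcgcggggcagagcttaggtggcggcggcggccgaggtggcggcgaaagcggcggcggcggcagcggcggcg
Slc4a4 start 2 (chr5:89027716-89027965, + strand): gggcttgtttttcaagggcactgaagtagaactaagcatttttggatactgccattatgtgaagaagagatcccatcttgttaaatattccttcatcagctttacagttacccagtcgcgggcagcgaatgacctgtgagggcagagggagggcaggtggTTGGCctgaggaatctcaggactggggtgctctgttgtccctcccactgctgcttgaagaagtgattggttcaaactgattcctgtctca
Aldh1l1 (chr6:90550543-90550792, + strand): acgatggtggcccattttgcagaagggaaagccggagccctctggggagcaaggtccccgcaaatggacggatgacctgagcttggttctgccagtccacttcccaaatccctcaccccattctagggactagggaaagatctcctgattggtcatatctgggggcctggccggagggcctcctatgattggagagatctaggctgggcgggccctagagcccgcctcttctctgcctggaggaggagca
Glul (chr1:153899679-153899928, + strand): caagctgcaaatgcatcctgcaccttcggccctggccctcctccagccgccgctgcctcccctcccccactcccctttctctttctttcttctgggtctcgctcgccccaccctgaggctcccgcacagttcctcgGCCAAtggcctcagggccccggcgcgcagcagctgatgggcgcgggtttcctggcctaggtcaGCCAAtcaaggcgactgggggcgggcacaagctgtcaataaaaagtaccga
The promoter before start 1 of Slc4a4 held 82.0% G and C and 2 such matches, and that before start 2 held 48.8% and 1 match. Across the 10 promoters found for 9 of the 10 members, 6 held at least 1 match, against 41.5% of all 32851 RefSeq promoters of the same length. The SOX core ACAAT, searched on both strands, was in 1 member promoter (Slc1a3) and in 27.7% of all promoters. A match is a run of letters and no measure of binding.

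Of the genes for water and potassium, the water channel Aqp4 and the inwardly rectifying potassium channel Kcnj10 differed in their patterns. Aqp4 read 8.29, 8.27 and 8.98 in Q92 mice at 18 months, against 8.83, 8.66 and 9.13 in wild-type mice. At 3 months it read 8.92, 8.42 and 8.66 in Q92 mice, against 8.36, 8.48 and 8.22 in wild-type mice. Mouse 66 lay within the wild-type values and the other 2 aged Q92 mice below them. In this brightest probe set the order of the group means was thus turned with age. Q92 was below wild type at 18 months (-0.36, SE 0.19, adjusted p 0.689) and above it at 3 months (0.31, SE 0.19, adjusted p 1.00). The change of the difference was -0.68 (95% interval -1.26 to -0.09, unadjusted p 0.0271, adjusted p 0.947), the largest in size among the members. It was -0.38 in 1425382_a_at and -0.25 in 1447745_at (limma unadjusted p 0.386 and 0.402). Without mouse 66 the difference at 18 months was -0.59 (adjusted p 0.263). In wild type Aqp4 was 0.52 higher at 18 than at 3 months (adjusted p 0.388) and the groups did not overlap. Its second probe set, 1425382_a_at, was at +0.14 between Q92 and wild type at 18 months, the other direction (adjusted p 0.962). It was at +0.52 at 3 months, so its order did not turn. The third, 1447745_at, was at -0.09 at 18 months and at +0.16 at 3 months. In both, aged and young wild-type mice overlapped. With the mean of all probe sets the wild-type difference with age was 0.34.

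Kcnj10, with 1 probe set, read 8.33, 8.50 and 8.63 in Q92 mice at 18 months, against 8.28, 8.29 and 8.49 in wild-type mice. It read 8.44, 8.03 and 8.14 in Q92 mice at 3 months, against 8.43, 8.33 and 7.97 in wild-type mice. All groups overlapped, and the difference between genotypes was 0.13 at 18 months (95% interval -0.18 to 0.44, adjusted p 0.898). Kcnj10 and S100b were the 2 members that were not lower in aged Q92 mice, and both directions turned with age in days as a block, which leaves mouse 11 against mice 12 and 17 (-0.06 for Kcnj10 and -0.12 for S100b).

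Of the glutamate transporters and glutamine synthetase, Slc1a2 differed least between Q92 and wild type at 18 months and Glul most. Slc1a2, the main glutamate transporter of the forebrain, read 11.66, 11.89 and 11.61 in Q92 mice at 18 months, against 11.75, 11.85 and 11.72 in wild-type mice. At 3 months it read 11.78, 11.78 and 11.92 in Q92 mice, against 11.95, 11.80 and 11.70 in wild-type mice. Its difference between Q92 and wild type at 18 months was -0.05 (95% interval -0.27 to 0.17, adjusted p 0.954), the smallest among the members, and all 4 groups overlapped. It turned to 0.08 with the mean of all probe sets and to 0.00 without mouse 66. Another probe set, 1439940_at, ranged over 2.13 log2 units and correlated with the brightest at r = 0.26. It read 10.19, 9.60 and 8.06 in Q92 mice at 18 months, against 8.99, 9.03 and 8.50 in wild-type mice, so its 0.44 difference (adjusted p 0.910) lay within the spread between Q92 mice.

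Slc1a3, the second astrocytic glutamate transporter, read 8.92, 8.91 and 9.09 in Q92 mice at 18 months, against 9.12, 9.42 and 9.05 in wild-type mice. The difference was -0.23 (SE 0.11, adjusted p 0.641), and the groups overlapped through mouse 66. Its values at 3 months lay between 9.08 and 9.16 in Q92 mice, against 9.03 to 9.19 in wild-type mice. Of its 6 probe sets 5 were lower in aged Q92 mice, 1452031_at with groups that did not overlap (-0.26, adjusted p 0.570). Signals were low for 1440491_at (-0.06, percentile 9.41 of mean signal), which was among the 5, and for 1439072_at (0.04, percentile 30.5). Glul, the glutamine synthetase, read 11.42, 11.04 and 11.03 in Q92 mice at 18 months, against 11.42, 11.60 and 11.52 in wild-type mice. Here mouse 11 met the wild-type range and mice 25 and 66 lay below it, unlike for Aqp4. The difference was -0.35 (SE 0.13, unadjusted p 0.0201, adjusted p 0.525), and -0.13 in its other probe set (adjusted p 0.767). At 3 months the Glul values were 11.24 to 11.53 in Q92 mice, against 11.23 to 11.54 in wild-type mice.

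Aldh1l1, the folate enzyme used to mark astrocytes throughout the brain, read 7.68, 7.78 and 7.88 in Q92 mice at 18 months, against 8.02, 8.05 and 7.99 in wild-type mice. These groups did not overlap, and the difference was -0.24 (SE 0.08, adjusted p 0.492). At 3 months it read 7.84, 7.99 and 7.91 in Q92 mice, against 8.01, 7.93 and 7.92 in wild-type mice, which overlapped. The other probe set of Aldh1l1, 1424401_at, had a low signal (percentile 32.4 of mean signal). Between genotypes at 18 months it was at -0.13 with groups that overlapped (limma adjusted p 0.869). Slc4a4 and Aldh1l1 were the 2 of 10 members that were lower without overlap at 18 months, against 7.51% of all genes, and 0 of 10 were higher without overlap, against 6.5%.

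The connexins Gja1 and Gjb6, which form the gap junctions between astrocytes, differed between aged Q92 mice. Gja1 read 10.01, 9.87 and 10.48 in Q92 mice at 18 months, against 10.13, 10.30 and 10.22 in wild-type mice. Gjb6 read 7.17, 7.21 and 7.95 in Q92 mice at 18 months, against 7.44, 8.00 and 7.87 in wild-type mice. For both genes mice 11 and 25 lay below every aged wild-type mouse, while mouse 66 did not. The differences were -0.10 for Gja1 (adjusted p 0.937) and -0.33 for Gjb6 (SE 0.22, adjusted p 0.780), and -0.28 and -0.58 without mouse 66. Without mouse 25 that of Gja1 turned to 0.03. These Gja1 values are of the brightest of its 6 probe sets, 1437992_x_at. All 6 were lower in aged Q92 mice, from -0.07 (1438945_x_at) to -0.25 (1415800_at, limma adjusted p 0.734), and 1415801_at was at -0.18 (limma adjusted p 0.773). At 3 months Gja1 lay between 10.27 and 10.42 in Q92 mice, against 10.13 to 10.47 in wild-type mice. Gjb6 lay between 7.21 and 7.56 in Q92 mice of that age, against 7.21 to 7.70 in wild-type mice.

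S100b, a calcium-binding protein that astrocytes release, had higher means at 18 than at 3 months in both genotypes. It read 9.46, 9.59 and 10.19 in Q92 mice at 18 months, against 9.64, 9.45 and 9.71 in wild-type mice. It read 9.23, 9.33 and 9.19 in Q92 mice at 3 months, against 9.18, 9.54 and 9.12 in wild-type mice. The difference between 18 and 3 months was 0.49 in Q92 (adjusted p 0.310, groups that did not overlap) and 0.32 in wild type (adjusted p 0.534), so neither passed. Without mouse 66 that of Q92 was 0.27. Its second probe set, which correlated with the first at r = 0.89, was higher by 0.40 over both genotypes (adjusted p 0.128), and every 18-month value lay above every 3-month value there. The difference between genotypes in S100b was 0.15 at 18 months (95% interval -0.23 to 0.52, adjusted p 0.912), and it turned to -0.08 without mouse 66.

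**Figure D3:**
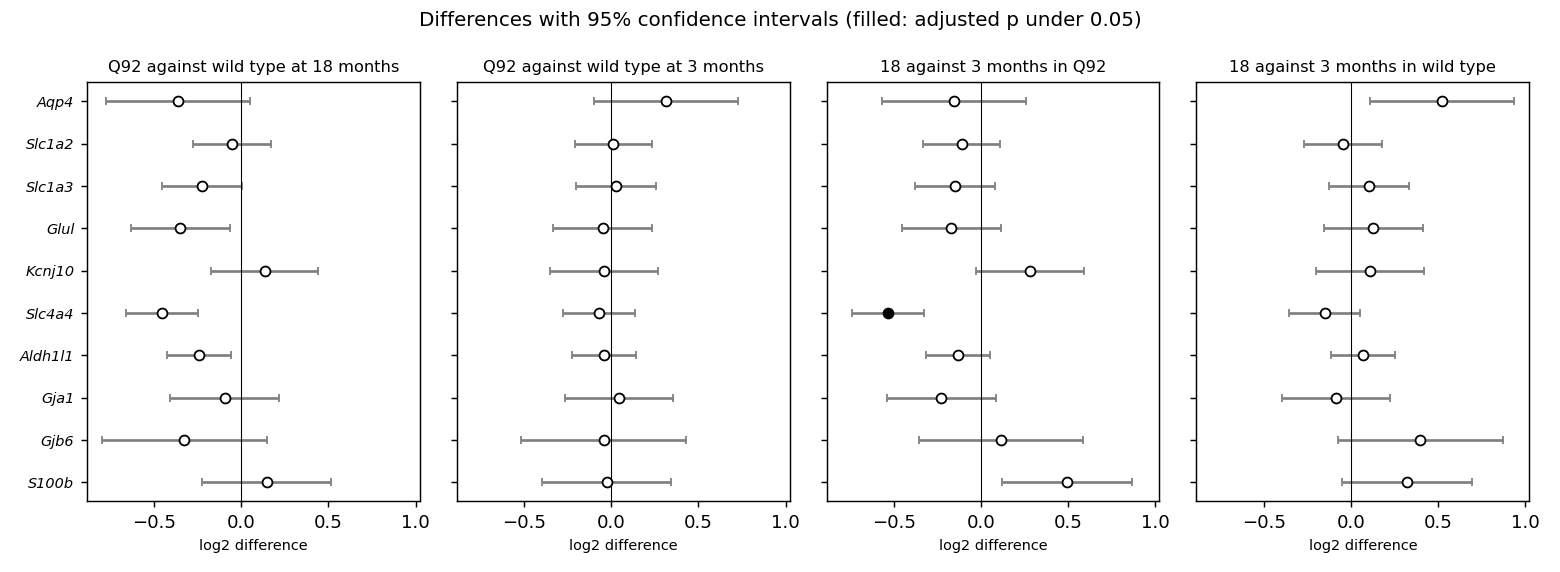
Log2 differences of the 10 genes with 95% confidence intervals from the limma fit (horizontal axis), in 4 comparisons, with a filled point where the adjusted p was under 0.05. Slc4a4 in Q92 mice, 18 against 3 months, is the one filled point, and the intervals of all 10 genes include 0 between genotypes at 3 months.

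Between genotypes at 3 months no member passed (limma), where 0.0111% of probe sets did. In Q92 4 members were higher and 6 lower, the median was -0.03, and the differences ran from -0.07 to 0.31. Of all 18193 genes 10448 were lower, with a median of -0.02. Of the 33 member probe sets, 23 were higher and 10 lower, with a median of 0.03. No member had an unadjusted p under 0.05, and none separated the groups without overlap, against 6.64% of genes. Going from 3 to 18 months, the genotype difference became more negative for 8 of 10 members, with a median change of -0.23, and the median change over all genes was 0.02. By limma 0 of 45037 probe sets passed here (0%), 2335 had an unadjusted p under 0.05, and 3 and 2 passed with an intensity trend and with array weights. Aqp4 and Slc4a4 were negative at an unadjusted p under 0.05, against 3.28% of all genes.

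The comparisons with age gave mostly negative values in Q92 and mostly positive ones in wild type, a difference that no member's own test of the change passed. In Q92, 7 of 10 were lower at 18 than at 3 months and the median was -0.14. In wild type, 7 of 10 were higher, the median was 0.11 and none passed, where 0.0511% of probe sets did. In wild type Aqp4 alone was higher without overlap, against 9.76% of genes, and Slc4a4 alone lower, against 8.81%. In Q92 S100b alone was higher without overlap, against 10%, and Slc4a4 alone lower, against 7.52%. The comparison between genotypes at 18 months and the comparison with age in Q92 share the same 3 aged Q92 arrays, so their agreement adds no separate evidence.

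Per mouse, the mean of the 10 members relative to the 12 arrays was -0.19, -0.16 and 0.13 in Q92 mice at 18 months, against 0.04, 0.15 and 0.15 in wild-type mice. Mouse 66 had the highest value of its group for 8 of 10 members, and for 6 of these (Aqp4, Kcnj10, Slc1a3, Gja1, Gjb6 and S100b) it lay within or above the wild-type values. At 3 months, wt_3m_467 had the lowest of its group for 9 of 10 members, with a mean of -0.15, and wt_3m_438 the highest for 7 of 10, with 0.09. The arrays of Q92_18m_66 and wt_3m_467 also had the lowest mean correlation with the other arrays (0.988 and 0.987, against 0.990 to 0.992 for the rest). Without both, the median member difference at 18 months was -0.28 and that of the change with age -0.24.

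Of the 28 other astrocyte genes measured, 26 were lower in Q92 at 18 months with a median of -0.19, and none passed. The 4 with the largest differences were Agt (angiotensinogen) at -0.70, Slc6a11 (a GABA transporter) at -0.70, Lcat (which esterifies cholesterol) at -0.41 and F3 (tissue factor) at -0.36, with adjusted p between 0.504 and 0.838. In wild type, 24 of 28 were higher at 18 than at 3 months with a median of 0.15, led by Fgfr3 (a fibroblast growth factor receptor) at 0.50 (adjusted p 0.152), whereas in Q92 21 of 28 were lower with a median of -0.10. At 3 months, 17 of 28 were higher in Q92 with a median of 0.04.

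**Figure D4:**
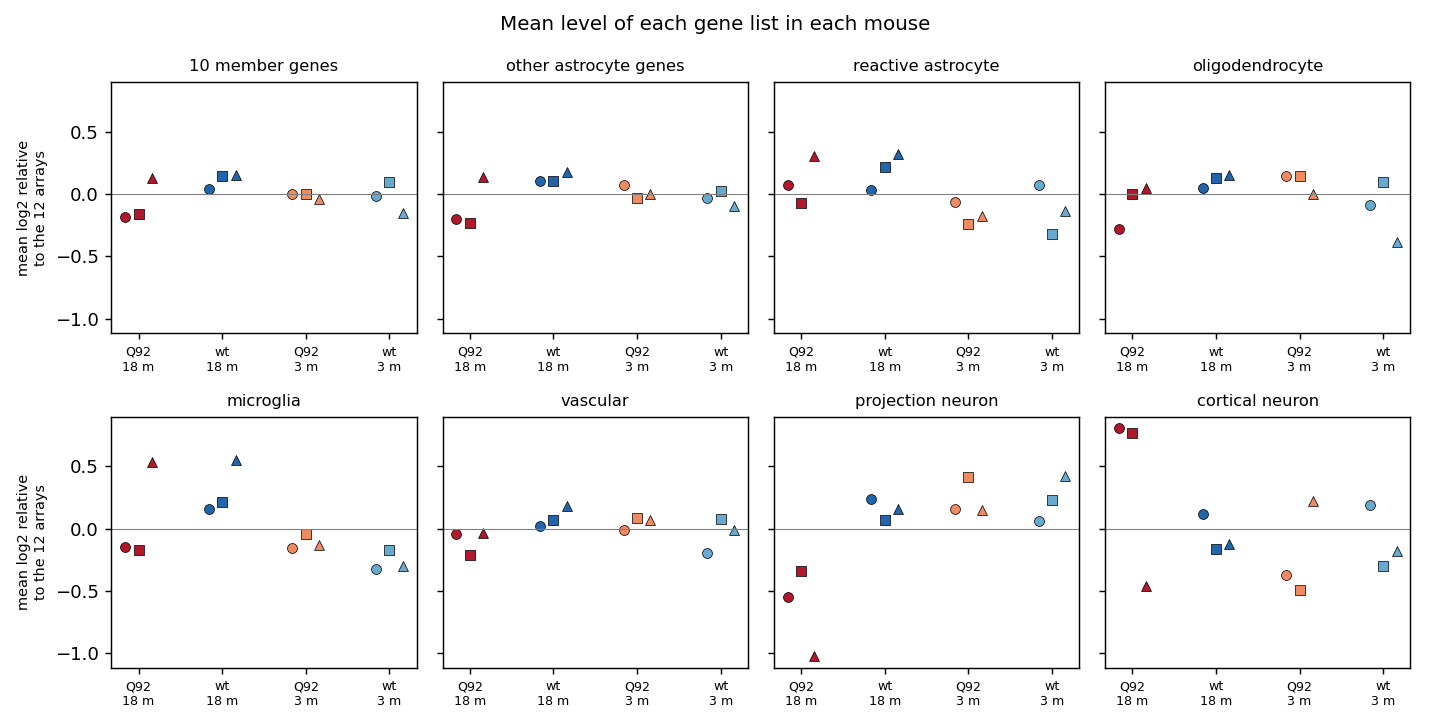
Mean log2 level of each gene list in each mouse, relative to the mean of the 12 arrays (vertical axis), for the 10 members and 7 marker lists. The members and the other astrocyte genes are lowest in Q92 mice 11 and 25 at 18 months and not in mouse 66, whereas the projection neuron list is lowest in mouse 66.

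Glial fibrillary acidic protein, Gfap, the filament protein of reactive astrocytes, rose with age in wild type by 1.86 on the log2 scale (limma adjusted p 0.0304). It read 7.38, 8.00 and 8.54 in Q92 mice at 18 months, against 8.66, 8.40 and 8.54 in wild-type mice. It read 7.15, 6.92 and 6.76 in Q92 mice at 3 months, against 7.20, 6.40 and 6.42 in wild-type mice. The Q92 difference with age was 1.03 (adjusted p 0.160), also without overlap, and the genotype difference at 18 months was -0.57 (adjusted p 0.636). The wild-type call was lost without 10 of the 12 mice left out 1 at a time (adjusted p 0.0106 to 0.122 over these fits). It was kept in 8 of 23 alternative settings. With all mice kept, it was lost under quantile normalization (limma adjusted p 0.0529), an intensity trend (0.0512) and a sex covariate (0.077). It was also lost with the compared arrays alone (0.0659) and with 18S RNA as a covariate (0.0763). Over both genotypes, the comparison added after the data had been seen, Gfap rose by 1.44 (limma adjusted p 0.0124). It passed there in all 22 settings (adjusted p 0.00496 to 0.0357), where 0.444% of probe sets passed in the main fit. Of 15 reactive astrocyte genes measured, 10 were higher with age in wild type and 10 in Q92, and 9 were lower in Q92 at 18 months, with a median of -0.02.

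Of the genes listed as partners or relatives of the members, none passed at 18 months. Of 13 partners of Aqp4 and Kcnj10, 9 were lower (median -0.10), with Utrn, which anchors the end-foot complex, at -0.30, Sntb1 at -0.27 and the sodium pump subunit Atp1b2 at -0.24, and Trpv4 at +0.26. Of 18 genes of the glutamate, GABA and glutamine cycle, 12 were lower (median -0.06), with the cystine-glutamate exchanger Slc7a11 at -0.42 and the neuronal transporters Slc17a7 at +0.69 and Slc1a6 at +0.36. Of 10 other connexins and related genes, 6 were lower (median -0.08), with Gjb2 at -0.45 (adjusted p 0.340, groups that did not overlap). Of 12 genes for bicarbonate, pH and lactate, 7 were lower (median -0.04), with the carbonic anhydrase Car2 at -0.36 (adjusted p 0.444). Of 10 folate and aldehyde genes, 6 were lower (median -0.03), with Aldh1a1 at -0.53, and of 9 S100 genes, 8 were lower (median -0.07), with S100a10 at -0.47.

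Markers of other cells were counted in the same way, and apart from Penk none of them passed between genotypes at 18 months. At that age 12 of 12 vascular genes were lower in Q92 (median -0.17), 10 of 12 microglial (-0.26), 10 of 13 oligodendrocyte (-0.13), 8 of 8 oligodendrocyte precursor (-0.15) and 11 of 13 choroid plexus and ependyma genes (-0.14). Of the projection neuron genes 13 of 13 were lower (median -0.81), with Penk, the enkephalin precursor, the one that passed (-1.26, adjusted p 0.00113), and 8 of 9 cortical neuron genes were higher (0.26). With age, Scn4b (-1.91, adjusted p 0.0123), Penk (-1.30, adjusted p 0.000571) and Rgs9 (-1.15, adjusted p 0.0377) of the neuron list fell in Q92, and Aspa of the oligodendrocyte list rose in wild type (0.70, adjusted p 0.0485). The mean level of the cortical list, relative to the 12 arrays, ranged from -0.46 to 0.80 in aged Q92 mice, against -0.16 to 0.12 in aged wild-type mice, with mice 11 and 25 at the top and mouse 66 at the bottom. The choroid plexus list was highest in wild-type mouse 12 (1.35), which had the highest value of its group for 7 of 10 members. An 18S ribosomal RNA control read 6.21 to 8.31 in aged Q92 mice, against 5.64 to 5.75 in aged wild-type mice, and with it as a covariate Slc4a4 was at -0.42 between genotypes at 18 months (adjusted p 0.473). Gapdh 3′ minus 5′ control signal was -0.05 to 0.07 in aged Q92 mice, against -0.03 to 0.00 in aged wild-type mice. The part of these differences in the results on the members was not tested.

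Over the 12 arrays, the 8 non-member genes most like the mean of the 10 members were Lrig1 (r = 0.93, rho = 0.94), Synpo2 (0.92, 0.96), Gprc5b (0.91, 0.89), Cd81 (0.90, 0.87), Kcnmb2 (0.89, 0.89), AW112010 (0.89, 0.92), Ctso (0.89, 0.92) and Pla2g7 (0.89, 0.91). After group means were removed their r stayed between 0.88 and 0.94, so the likeness describes differences between mice within groups. The points share dissection, array and normalization, and they describe these 12 arrays. Among the 45 pairs of members r ran from -0.56 (Slc1a2 with S100b) to 0.74 (Slc4a4 with Aldh1l1).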

How the data were processed

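Striatal RNA (TRIzol and RNeasy) of 12 mice was measured on 12 Affymetrix Mouse Genome 430 2.0 arrays. The authors deposited 1 log2 signal per probe set and array, made with RMA in the affy package per the submitters' processing notes (no version). RMA sets arrays to a common distribution, so differences are relative to the other genes. The sources used here do not say whether all arrays were normalized at once. Array data have no read depth, and 3 mice per group limit precision (median SE of a log2 difference 0.122). The values (2.03 to 13.8) were used as deposited.

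A single limma model (3.58.1, R 4.3.3) with 1 mean for each group covered 45037 probe sets without 64 controls (8 residual and 4.50 prior degrees of freedom), and p-values were adjusted by Benjamini-Hochberg in each comparison. Fitting was tested on simulated data. The probe-gene table paired 34945 probe sets with 1 gene, 932 with several and 9160 with none. Named were all members, from each of 15 lists (190 of 207 genes measured) those that passed or up to 4 with the largest differences, Gfap, and the 8 genes most like the members. Members and lists were chosen with earlier results of these data known, so no p is given for a list. Alternatives covered normalization, low signals, moderation, array weights, sex, age in days, 18S RNA, probe set choice and leaving out mice. Promoters came from RefSeq (GRCm38.p6). No promoter of Aqp4 was used here.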

Additional observations from a re-analysis of the deposited data

Results flagged for a closer look

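Aldh1l1 was the 1 member in which all aged mice lay beyond the mean of young mice of their genotype, in opposite directions. Every aged Q92 mouse lay below the mean of young Q92 mice, and every aged wild-type mouse above that of young wild-type mice. This holds for its brightest probe set. In 1424401_at, which had a low signal, wild-type mouse 17 lay below the mean of young wild-type mice (3.65 against 3.86). For Aldh1l1 the difference in the change with age between Q92 and wild type was -0.20 (SE 0.12, limma adjusted p 0.950), which did not pass, with -0.13 in Q92 and 0.07 in wild type. Group means also went opposite ways with age for Aqp4 (-0.15 in Q92 and 0.52 in wild type), Glul (-0.17 and 0.13) and Slc1a3 (-0.15 and 0.11). Their differences in the change were larger in size (-0.68, -0.30 and -0.25) and did not pass either.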

How the results depend on the processing

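The 1 member called in Q92 mice with age, Slc4a4, became 0 under quantile normalization (adjusted p 0.0529), a sex covariate (0.0566), fitting the compared arrays alone (0.205), the mean of all probe sets (-0.44, 0.139) and leaving out both arrays that stand apart, chosen after seeing the data (0.0778); it was 0 without any 1 of the 12 mice. It stayed 1 under the other 6 settings. Over both genotypes, where 0 members were called, the count was 1 (Slc4a4) after a shift to a common median (0.04998), without low signals (0.0413), with an intensity trend (0.0293), with array weights (0.0320) and with 1 probe set per gene (0.0331), and 0 to 1 without single mice (0.0457 without mouse 66 and 0.0490 without Q92_3m_466). The causes were not tested.

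Between genotypes at 18 months 0 members were called in any setting, the median stayed between -0.28 and -0.13, and directions were kept in 117 of 120 values with 1 mouse left out and in 115 of 120 otherwise. At 3 months these were 106 and 113 of 120. With age in days as a block, which leaves mouse 11 against mice 12 and 17, Glul was at -0.14 and Gjb6 at -0.76. Precision is limited by 3 arrays per group. The groups share no mouse numbers, so mice were not paired. Ages in days were shared between genotypes at 3 months (100 and 103 days), and at 18 months only at 596 days.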
